A study of Mus musculus with 2 samples.

Results

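The genes described here encode chaperones, disulphide isomerases, degradation factors, translocon subunits and stress sensors of the endoplasmic reticulum (ER). They were chosen by name, as 32 mouse symbols matched to the Entrez identifiers of the expression table, and all 32 were found among its 24440 features. The CD4+ T cells that gave the RNA came from C57BL/6 mice of wild-type genotype, 6 to 8 weeks old. They had spent 48 h in a medium that steers them to the T helper 17 (Th17) fate. Cells of one culture shared it with wild-type antigen presenting cells (WT APCs) and those of the other with APCs transgenic for OX40L (OX40L-TG APCs), which binds the costimulatory receptor OX40 on T cells. The promoter of the transgene, the kind of APC and the number of mice are not given in the sources used here. Each condition had 1 library, so every difference below lies between these 2 libraries, has no replicate check and carries no test.

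Proteins bound for the cell surface or for secretion, cytokines and their receptors among them, enter the ER through the Sec61 translocon and fold there with the help of BiP, lectin chaperones and disulphide isomerases. Chains that fail to fold are sent back to the cytosol for destruction, a route called ER-associated degradation. When unfolded chains accumulate, the sensors IRE1, ATF6 and PERK start the unfolded protein response (UPR). IRE1 splices the Xbp1 transcript and ATF6 is cut to a transcription factor, and both raise genes of folding and degradation. PERK slows translation and favours ATF4. XBP1 is also known as a factor of plasma cells, which secrete antibody in bulk.

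The sequence that ties many of these genes to ATF6 and XBP1 is the ER stress response element (ERSE), which is made of a CCAAT box and, after 9 bases of any kind, a CCACG box. A shorter form, ERSE-II, holds the same boxes with 1 base of any kind between them and the first box on the opposite strand. Both were searched on both strands in RefSeq promoter windows of 300 bases (build GRCm38.p6), from 250 bases before to 50 bases after an annotated start. A gene with several annotated starts could have several windows. Windows were on hand for 25 of the 32 genes. Of these, 8 (32%) held an exact ERSE and 2 others held an exact ERSE-II. Over all 27025 genes with a window, 37 (0.137%) held an ERSE and 12 (0.0444%) an ERSE-II. The exact sites are shown because they are a feature of the genes that their expression did not select. Because the element is known from genes of this kind, its share among genes chosen by name is not a result of these data. They are written along the motif's own strand, with the fixed bases in capitals.
Hspa5: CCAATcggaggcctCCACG
Hsp90b1, first site: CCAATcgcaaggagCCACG
Hsp90b1, second site: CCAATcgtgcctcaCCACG
Calr: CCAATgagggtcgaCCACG
Canx: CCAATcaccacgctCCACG
Creld2: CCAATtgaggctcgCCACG
Dnajc3: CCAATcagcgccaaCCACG
Pdia6: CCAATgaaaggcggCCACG
Syvn1: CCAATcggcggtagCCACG
Herpud1, ERSE-II: ATTGGgCCACG
Dnajb11, ERSE-II: ATTGGcCCACG

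Counted from the annotated start as base 1, the Hspa5 site spans -65 to -47 (chr2:34772025-34772043, plus strand). The sites of Hsp90b1 span -212 to -194 and -107 to -89, the second on the opposite strand of the gene. The Syvn1 site is the nearest ERSE to its start, at -44 to -26, and the Dnajb11 ERSE-II lies inside the transcribed part, at 8 to 18. The core of the UPR element bound by XBP1, TGACGTG, was present in Hspa5 and Txndc5 (2.22% of all genes with a window). TGATGNAA, a motif of the type read by ATF4 with C/EBP partners, was present in Herpud1 and Txndc5 (4.51% of all). The Txndc5 matches, at chr13:38528046-38528052 and chr13:38528922-38528929, lie in windows of different annotated starts. A match is a description of letters and not evidence of binding.

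The full windows of 4 genes follow. Hspa5 and Hsp90b1 are the abundant chaperone genes with ERSE sites, and Edem1 and P4hb are the ones, among genes with a window, with the largest differences between the libraries. Capitals mark the fixed bases of exact ERSE sites, of which Edem1 and P4hb have none. Each runs along its gene's strand, at chr2:34771840-34772139 (plus), chr10:86705395-86705694 (minus), chr6:108828391-108828690 (plus) and chr11:120573204-120573503 (minus).
Hspa5: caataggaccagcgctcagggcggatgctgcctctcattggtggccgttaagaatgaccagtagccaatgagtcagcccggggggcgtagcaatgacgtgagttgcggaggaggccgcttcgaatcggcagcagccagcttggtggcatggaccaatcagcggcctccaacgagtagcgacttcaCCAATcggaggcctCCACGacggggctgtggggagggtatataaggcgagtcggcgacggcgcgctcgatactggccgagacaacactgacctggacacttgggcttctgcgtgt
Hsp90b1: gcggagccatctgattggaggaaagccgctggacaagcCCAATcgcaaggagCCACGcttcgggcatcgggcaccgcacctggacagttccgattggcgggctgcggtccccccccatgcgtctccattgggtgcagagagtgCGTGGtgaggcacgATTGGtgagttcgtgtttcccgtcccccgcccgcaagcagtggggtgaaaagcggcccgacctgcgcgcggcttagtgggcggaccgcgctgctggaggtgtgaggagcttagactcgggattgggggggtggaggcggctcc
Edem1: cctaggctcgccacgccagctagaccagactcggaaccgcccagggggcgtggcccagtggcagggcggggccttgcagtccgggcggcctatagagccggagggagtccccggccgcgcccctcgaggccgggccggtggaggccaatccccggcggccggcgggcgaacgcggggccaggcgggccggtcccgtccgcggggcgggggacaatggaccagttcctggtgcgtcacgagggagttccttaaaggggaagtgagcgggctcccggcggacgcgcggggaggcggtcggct
P4hb: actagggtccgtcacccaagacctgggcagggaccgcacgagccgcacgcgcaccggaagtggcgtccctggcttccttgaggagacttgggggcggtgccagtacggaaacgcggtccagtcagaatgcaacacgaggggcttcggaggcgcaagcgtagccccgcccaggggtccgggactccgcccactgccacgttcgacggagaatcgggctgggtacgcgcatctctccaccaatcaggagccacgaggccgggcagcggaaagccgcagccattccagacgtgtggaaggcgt

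Values are FPKM, which divides fragments by transcript length and library size, so levels can be compared between genes. The fold change is given on the log2(FPKM + 1) scale, and genes below 1 FPKM in both libraries were dropped, which removed none of the 32 and left 10627 annotated genes. Low FPKM values step in single fragments, and from those steps the libraries were estimated at about 23700000 fragments for WT-APC and 27200000 for OX40L-TG-APC. Each ratio of OX40L-TG-APC over WT-APC FPKM is followed by its 95% exact Clopper-Pearson interval from estimated fragments. It covers counting error only, not variation between cultures. T cell genes were abundant in both libraries (Cd3e 98.0 and 86.5 FPKM, Cd4 201 and 246 FPKM, WT-APC first, as in all pairs below).

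Most of these genes differed little between the libraries, as did most kept genes. None of the 32 was at least 2-fold higher and none was at least 2-fold lower with OX40L-TG APCs, where 2.26% and 1.33% of all kept genes were. At 1.5-fold, 1 gene was higher (Edem1), where 7.2% of all kept genes were, and 1 was lower (Atf6), where 3.38% were. With 32 genes, such small counts do not set the group apart from these shares. Within 1.2-fold, a limit set after the values were seen, lay 26 of 32 (81.2%), against 63% of all kept genes and 65.8% of the 8989 kept genes in the same range of FPKM. That range runs from the lowest to the highest mean level of the 32. It holds most kept genes and does not match the 32 by level. No gene of the list was among the 398 genes of the authors' deposited table of differences. None could be, since the smallest absolute log2 ratio in that table was 1.00. The plain ratios of the 32 genes ran from 0.573 to 1.64, so this absence adds nothing to the 2-fold count. The median log2 change was 0.09 over the 32 genes and 0.11 over all kept genes, and 16 of the 32 lay above the latter (50% of all kept genes). In such bulk RNA, fewer cells of a type and less RNA per cell cannot be told apart.

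Because all genes had a median ratio of 1.08 on this scale, a ratio is best read against that value rather than against 1. Dividing by the median ratio of well-expressed genes lowered the all-gene median by 0.12 log2, to -0.00077. Under that scaling 7 genes with small positive changes turned negative, namely Hspa5, Creld2, Calr, Pdia6, Derl1, Derl2 and Sec61a1. The counting interval lay wholly above 1.08 for 11 of the 32 genes, wholly below it for 12, and included it for 9. The same count was not made over all kept genes, and intervals are narrow for abundant genes. These counts therefore do not set the 32 apart from other genes. The intervals are for plain ratios, whose median over well-expressed genes was 1.09.

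The genes were well expressed, with 18 of 32 at 50 FPKM or more in both libraries and 13 above the 90th percentile of kept genes by mean level. The lowest was Ern1 and the highest were Calr, P4hb and Hspa5. Summed over the 32 genes the FPKM was 2617 and 2943, a ratio of 1.12. P4hb alone made up 39.6% of that difference, and without it the sums were 2344 and 2541, a ratio of 1.08. The rank by level was the same in both libraries for 17 of the 32 genes. P4hb went from rank 2 to rank 1, Calr from 1 to 2, and Edem1 moved furthest, from rank 21 to 15.

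**Figure D1:**
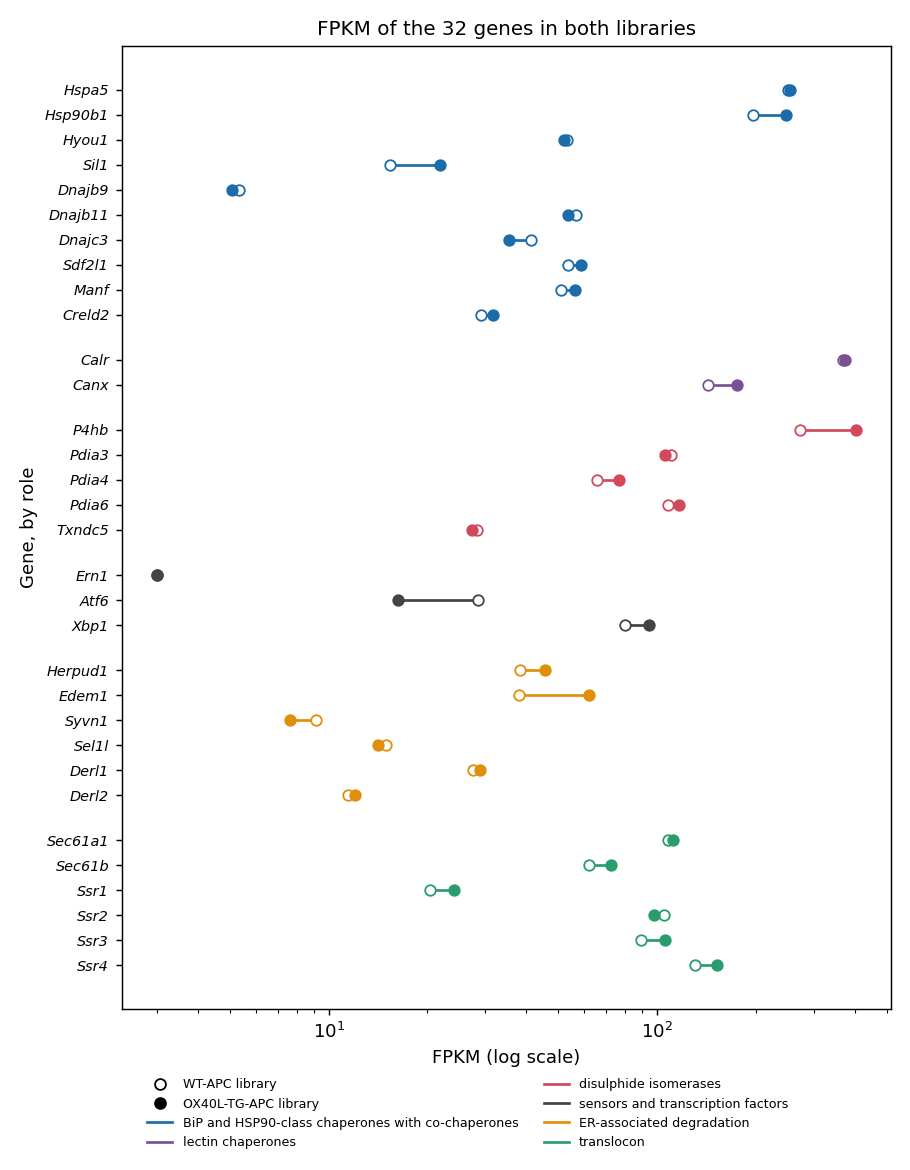
FPKM on a log axis for each of the 32 genes, grouped by role, with open circles for the WT-APC library and filled circles for the OX40L-TG-APC library. Most pairs lie close together, and the longest lines are those of Atf6 (28.4 to 16.3 FPKM), Edem1 (37.9 to 62.1 FPKM) and P4hb (273 to 402 FPKM).

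At the centre of the BiP system, FPKM was nearly equal in both libraries. Hspa5, which encodes BiP, the HSP70 of the ER and a standard marker of the UPR, had 251 and 254 FPKM, a ratio of 1.01 (0.990 to 1.03). This interval lay wholly below the all-gene median ratio of 1.08. The Hspa5 gene (Entrez 14828) lies on chromosome 2 (34772090 to 34776529), and its locus also overlaps Rabepk. Hsp90b1, which encodes the ER form of HSP90 (GRP94), had 196 and 248 FPKM, a ratio of 1.26 (1.23 to 1.29). The intervals of these abundant chaperone genes did not overlap, although both have an ERSE.

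BiP needs nucleotide exchange factors to release its clients, and the genes of 2 such factors differed in their ratios. Sil1 measured 15.4 and 21.9 FPKM, giving a ratio of 1.42 (1.29 to 1.57), the highest of its subgroup. Hyou1, which encodes GRP170, was at 53.3 and 52.2 FPKM, for a ratio of 0.978 (0.944 to 1.01). The locus printed for Sil1 spans other coding genes as well, Ctnna1 among them.

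J proteins hand unfolded chains to BiP, and the 3 in this list lay below the all-gene median. Dnajc3, which encodes p58IPK and has an ERSE, had 41.4 and 35.3 FPKM, a ratio of 0.854 (0.821 to 0.889). Dnajb11 (ERdj3) measured 56.6 and 53.4 FPKM, giving a ratio of 0.944 (0.895 to 0.997). Dnajb9 (ERdj4), a target of XBP1 at low level here, stood at 5.33 and 5.09 FPKM, and its interval of 0.818 to 1.12 included both 1 and 1.08. Of 5 other ER J protein genes, Dnajc10 and Dnajb12 lay above the all-gene median and Dnajc1, Dnajc25 and Dnajb14 below it.

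The other genes of this subgroup followed the bulk of the transcriptome. Sdf2l1, whose product joins ERdj3, stood at 53.4 and 58.7 FPKM. Manf and Creld2, which encode small secreted or ER-held proteins induced by ER stress, stood at 51.1 and 56.2 FPKM and at 29.1 and 31.6 FPKM. Their ratios were 1.099, 1.101 and 1.09, within counting error of the all-gene median. Over the 10 genes the median log2 change was 0.07, with 5 above the all-gene median and 5 below.

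The lectin chaperones hold glycoproteins through their sugar chains, calreticulin in the lumen and calnexin in the membrane, and their genes differed. Calr was the most abundant of the 32 genes in the WT-APC library, at 370 and 374 FPKM, a ratio of 1.01 (0.993 to 1.03). Canx was at 143 and 175 FPKM, for a ratio of 1.22 (1.195 to 1.248). Both promoters hold an ERSE. The counting intervals did not overlap, so Canx was above the all-gene median and Calr below it by more than counting error.

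Among disulphide isomerase genes, P4hb stood apart. It encodes protein disulphide isomerase, which is also the beta subunit of collagen prolyl hydroxylase (Entrez 18453, chromosome 11, 120560304 to 120572936). Its level was 273 FPKM with WT APCs and 402 FPKM with OX40L-TG APCs, a ratio of 1.47 (1.4467 to 1.5004), and its log2 change of 0.56 lay at percentile 92.0 of all kept genes. Pdia4 had 65.8 and 76.7 FPKM, a ratio of 1.16 (1.12 to 1.22), and Pdia6 at 108 and 117 FPKM, a ratio of 1.09 (1.05 to 1.12). Pdia3, which encodes the ERp57 isomerase that works with the lectin chaperones, measured 110 and 106 FPKM, giving a ratio of 0.962 (0.932 to 0.993). Txndc5 stood at 28.3 and 27.4 FPKM, with an interval of 0.908 to 1.03. The isomerase genes therefore ran from slightly lower to nearly 1.5-fold higher, with P4hb highest. Other coding genes overlap the loci of Pdia3, Pdia6 and Txndc5.

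Partners of P4hb were looked up after its value was seen. Ero1a, the oxidase gene whose product recharges protein disulphide isomerase and which is also induced by hypoxia, was at 40.1 and 122 FPKM, for a ratio of 3.05 (2.95 to 3.16). The authors' deposited table gave it a log2 ratio of 1.64 and a p-value of 5e-05, again for these libraries and not for the conditions. Its relative Ero1b, which has an ERSE, stood at 2.66 and 2.84 FPKM, with an interval of 0.904 to 1.26. Of the catalytic subunits of prolyl hydroxylase, P4ha2 had 7.52 and 23.8 FPKM, a ratio of 3.17 (2.83 to 3.54), and P4ha1 at 60.5 and 61.9 FPKM, a ratio of 1.02 (0.982 to 1.07).

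**Figure D2:**
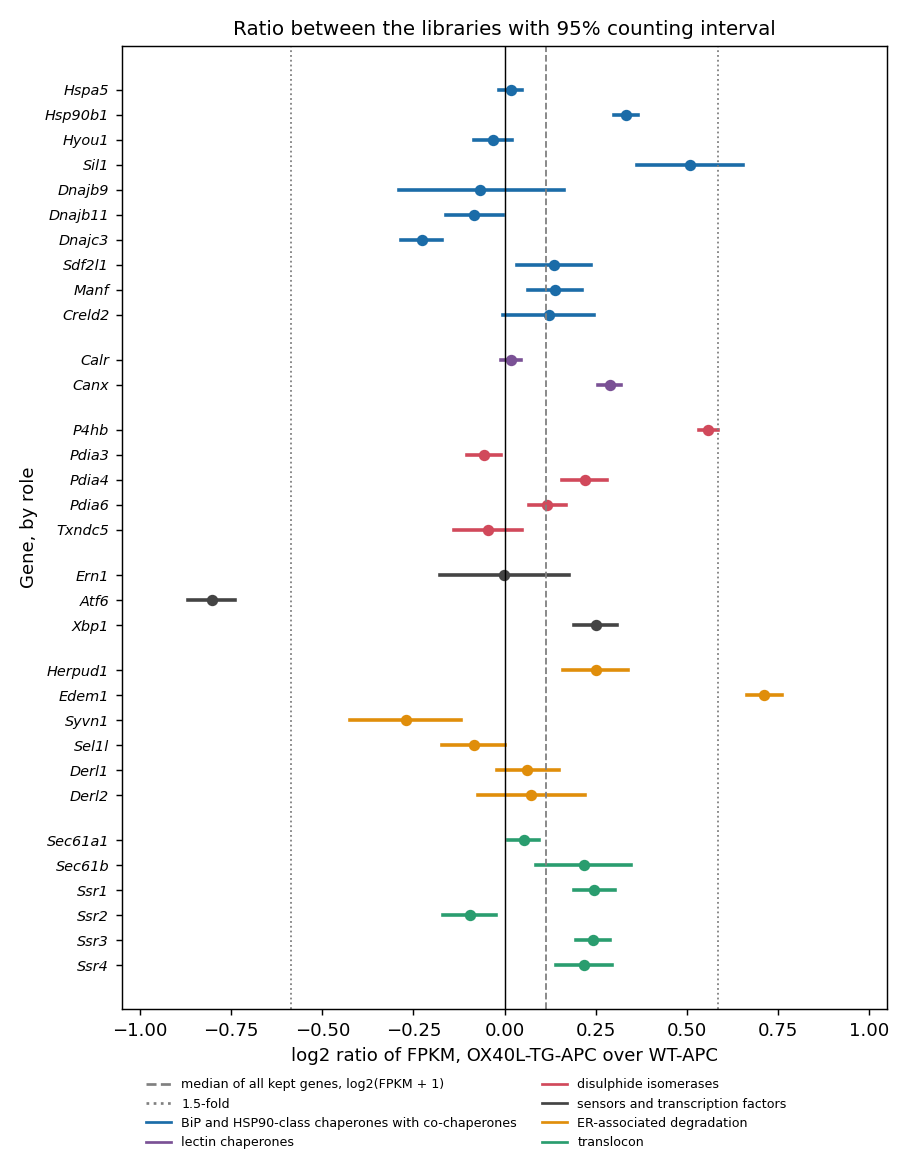
Log2 ratio of FPKM, OX40L-TG-APC over WT-APC, for each of the 32 genes, with bars for the 95% counting interval. The dashed line is the median of all kept genes (0.11) and the dotted lines are 1.5-fold. Only Edem1 on the right and Atf6 on the left lie beyond 1.5-fold, and P4hb lies just inside it.

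The sensor genes did not move together. Ern1, which encodes IRE1, was the lowest of the 32 and had 3.00 FPKM in both libraries, a ratio of 0.999 (0.885 to 1.13). Atf6 (Entrez 226641, chromosome 1, 170704457 to 170867771) stood at 28.4 and 16.3 FPKM, 1.75-fold lower with OX40L-TG APCs (1.67 to 1.83). Its log2 change of -0.77 lay at percentile 2.25 of all kept genes. The locus overlaps a predicted coding gene, Gm29733, and strand handling is not given, so fragments of that gene could be counted with it. Xbp1 measured 79.7 and 94.8 FPKM, giving a ratio of 1.19 (1.14 to 1.24). A gene value does not separate the spliced and unspliced Xbp1 transcripts, so it holds no readout of IRE1 activity.

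Sensor genes outside the 32 differed less than Atf6. Eif2ak3, which encodes PERK, was at 8.79 and 11.3 FPKM, a ratio of 1.29 (1.16 to 1.44). Atf6b, the relative of Atf6, was at 13.3 and 12.9 FPKM, a ratio of 0.973 (0.884 to 1.07). The interval for Atf6, 0.548 to 0.599, lay wholly below that for Atf6b. Rtcb, which encodes the ligase that joins spliced Xbp1, was at 99.2 and 123 FPKM, a ratio of 1.24 (1.19 to 1.29). Of the 11 genes in that list none reached 1.5-fold, and 6 lay above the all-gene median.

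Edem1 had the largest ratio above 1 of the 32 genes. It encodes a lectin-like protein that passes misfolded glycoproteins on to degradation (Entrez 192193, chromosome 6, 108828641 to 108859356). It stood at 37.9 FPKM with WT APCs and 62.1 FPKM with OX40L-TG APCs, a ratio of 1.64 (1.58 to 1.70), at percentile 94.9 of all kept genes by log2 change. With the median ratio of well-expressed genes set to 1 its log2 change was 0.57, just short of 1.5-fold. Its relatives differed from it. Edem2 was at 24.0 and 25.8 FPKM, for a ratio of 1.07 (0.998 to 1.16), and Edem3 at 14.2 and 11.1 FPKM, a ratio of 0.786 (0.719 to 0.859).

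SEL1L and the ligase HRD1, encoded by Syvn1, form the core of the degradation complex, and both genes were below the all-gene median. Syvn1 had 9.18 and 7.60 FPKM, a ratio of 0.828 (0.745 to 0.921), and shares its locus with Mrpl49. Sel1l measured 14.9 and 14.1 FPKM, giving a ratio of 0.943 (0.889 to 1.00). The Derlin genes, whose products take part in moving chains out of the ER, stood at 27.6 and 28.8 FPKM for Derl1 and at 11.4 and 12.0 FPKM for Derl2. The intervals of both Derlin genes included 1 and 1.08. Herpud1, a scaffold gene with the ERSE-II site shown above, was at 38.4 and 45.6 FPKM, for a ratio of 1.19 (1.12 to 1.27). The median log2 change over the 6 degradation genes was 0.06. In a further list of 19 degradation genes none reached 1.5-fold and 11 lay above the all-gene median. The largest changes in it were those of Edem3 and of Vcp, the gene of the extraction motor p97, at 34.3 and 42.1 FPKM (ratio 1.23, 1.17 to 1.29).

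Of the 6 translocon genes 4 lay above the all-gene median of 0.11 (50% of all kept genes) and Sec61a1 and Ssr2 below it, with a median log2 change of 0.22. Sec61a1, which encodes the channel itself, had 108 and 112 FPKM, a ratio of 1.04 (1.01 to 1.07), and Sec61b, a small subunit, at 62.2 and 72.3 FPKM, a ratio of 1.16 (1.06 to 1.27). The 4 subunits of the translocon-associated protein complex gave a split. Ssr1 (20.3 and 24.1 FPKM), Ssr3 (89.3 and 106 FPKM) and Ssr4 (131 and 152 FPKM) had ratios of 1.19, 1.18 and 1.16, whereas Ssr2 measured 105 and 98.0 FPKM, giving a ratio of 0.936 (0.890 to 0.985). The loci printed for Ssr1 and Ssr2 span other coding genes, Arhgef2 in the case of Ssr2.

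Among the 25 genes with a promoter window, the largest changes, those of Edem1 and P4hb, were in genes with neither exact motif. Only exact matches were counted, so genes with a variant of either motif fall among those without. The P4hb window shown above holds a CCAAT box shortly before a CCACG box, at another spacing. Atf6 and the other 6 genes without a window were not searched. Over the 10 genes with an ERSE or ERSE-II, log2 changes ran from -0.24 (Syvn1) to 0.33 (Hsp90b1), with a median of 0.07 and 5 above the all-gene median. Over the 15 with a window and neither motif, they ran from -0.08 to 0.70, with a median of 0.21 and 9 above. Outside the 32 genes, 7 kept genes had an exact ERSE. They ran from -0.09 for Pan2 to 0.36 for Adcy3, and 3 of the 7 lay above the all-gene median, where 50% of kept genes lie. None of these 7 reached 1.5-fold.

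**Figure D3:**
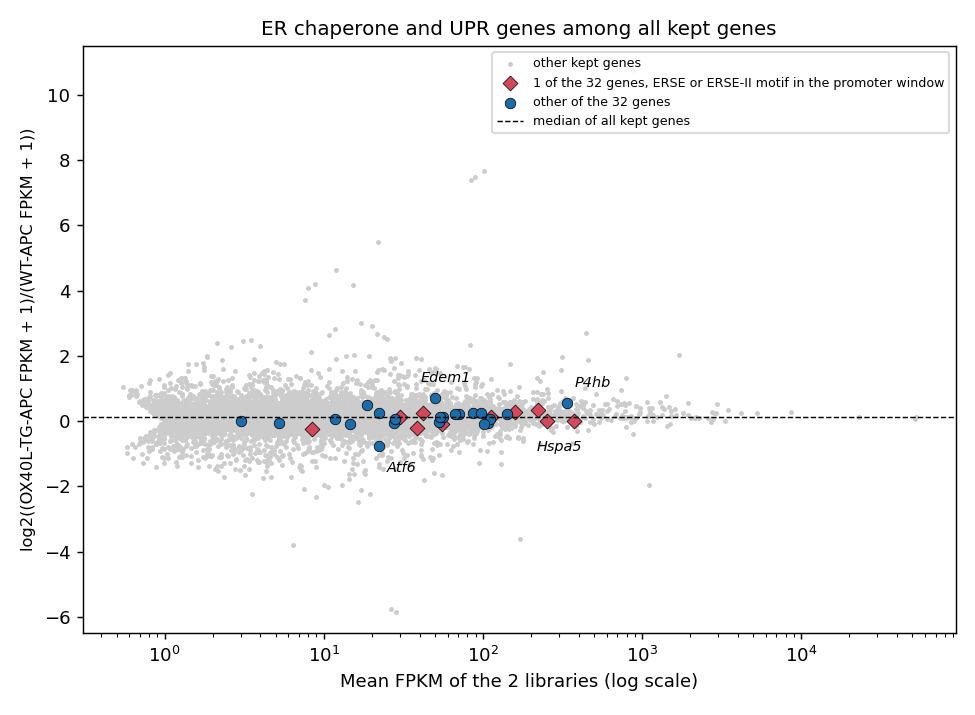
Log2 change against mean FPKM (log axis) for 10627 kept genes in grey, with the 32 genes as coloured symbols and diamonds for those with an exact ERSE or ERSE-II. The dashed line is the all-gene median of 0.11. The diamonds lie between -0.24 and 0.33, inside the spread of the grey points at the same level.

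The rest of the secretory pathway and the PERK arm were read from lists that hold none of the 32 genes. Over 107 such genes, 105 were kept, 4 were at least 2-fold higher (2.26% of all kept genes) and none was 2-fold lower. At 1.5-fold 8 were higher (7.2%) and none lower. The median log2 change was 0.18 and 67 of 105 lay above the all-gene median. Most of these calls were PERK arm targets, and without that list 1 of 97 kept genes was 2-fold higher (Ero1a), 2 were 1.5-fold higher (Ero1a and Kdelr3), and the median was 0.16 with 59 above the all-gene median. The oligosaccharyltransferase, which adds N-linked sugars in the ER, had 7 of 10 genes above that median and none at 1.5-fold. Its largest changes were in Magt1 (16.5 and 24.4 FPKM, ratio 1.48, 1.40 to 1.57) and Rpn2 (115 and 149 FPKM, ratio 1.30, 1.26 to 1.34).

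Other steps were covered by 4 further lists. In the list of other translocation and signal peptide genes 10 of 17 lay above the all-gene median, with Tram2 (0.638 and 1.30 FPKM) and the signal peptidase gene Spcs3 (72.3 and 96.5 FPKM) changed most. Of 6 kept genes of the glycoprotein folding cycle 4 lay above, led by the cargo receptor genes Mcfd2 (8.84 and 11.9 FPKM) and Lman1 (26.6 and 35.3 FPKM). In the list of further J proteins and folding helpers 5 of 11 lay above, and Sdf2 (22.8 and 33.0 FPKM) and Dnajc10 (27.4 and 36.2 FPKM) changed most. Of 11 genes of the COPII coat, which buds cargo from the ER, 7 lay above, led by Sec13 (102 and 130 FPKM) and Sec23a (9.03 and 11.7 FPKM). None of these 45 kept genes reached 1.5-fold on the log2(FPKM + 1) scale, though the plain ratio of the low Tram2 was 2.04 (1.603 to 2.61).

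KDEL receptors return ER proteins that escape, and all 3 of their genes lay above the all-gene median. Kdelr3 was at 0.804 and 2.05 FPKM, a ratio of 2.55 (1.61 to 4.06) at low level, and Kdelr2 at 35.7 and 45.4 FPKM, a ratio of 1.27 (1.19 to 1.36). The locus printed for Kdelr3 also holds the coding gene Ddx17. In the list of other oxidoreductases, Ero1a was the sole gene of 10 at 2-fold. Prdx4, which encodes an ER peroxiredoxin, followed at 51.6 and 72.9 FPKM, a ratio of 1.41 (1.32 to 1.52).

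Targets of the PERK arm differed in the same libraries. All 8 kept genes of that list lay above the all-gene median, where 50% of kept genes lie. At least 1.5-fold higher were 6 (7.2% of all kept genes), and 3 were at least 2-fold higher (2.26%). The 3 were Atf3 (0.410 and 4.21 FPKM), Trib3 (2.11 and 6.87 FPKM) and Chac1 (0.265 and 1.73 FPKM). The median log2 change of the 8 was 0.93, beside 0.09 for the 32 ER genes. The 3 genes at 2-fold are low. The 2-fold count of the list was 5 with a pseudocount of 0.1, 0 with a pseudocount of 5 (median 0.56) and 1 with a filter of 5 FPKM. Not all of the 8 are low, and Atf4, the highest, was at 126 and 187 FPKM, a ratio of 1.49 (1.44 to 1.54). The authors' deposited table of differences lists 4 of the 8, with log2 ratios of 3.39 for Atf3, 1.74 for Trib3, 1.15 for Sesn2 and 1.08 for Cebpb. That table holds 398 genes, with a smallest absolute log2 ratio of 1.00. It comes from these same libraries and is not separate evidence. ATF4 targets can also be raised without ER stress, through other kinases of the integrated stress response. The list was drawn up with an earlier result on this response known, so its direction is not independent evidence.

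**Figure D4:**
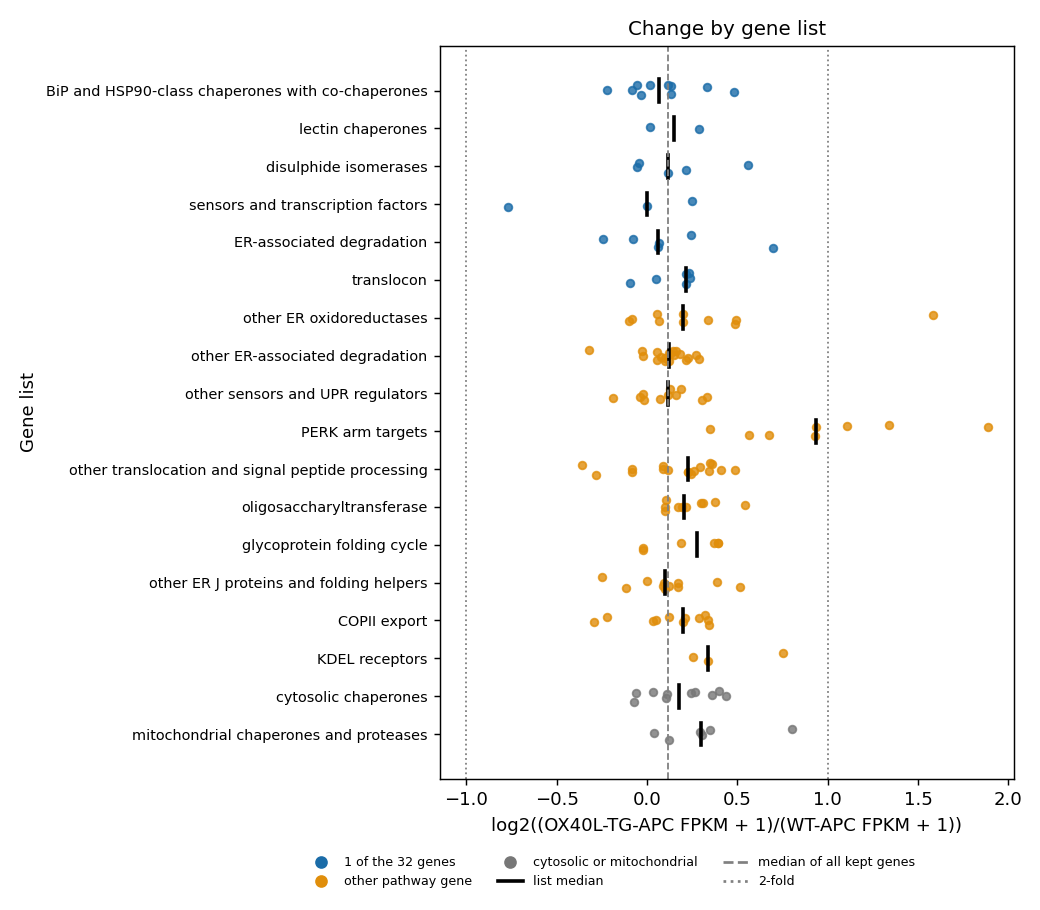
Log2 change between the libraries, on the log2(FPKM + 1) scale, of each kept gene by list, with blue points for the 32 genes by role, orange for other secretory pathway genes and grey for chaperones of the cytosol and mitochondria. Black bars are list medians, the dashed line is the all-gene median (0.11) and the dotted lines are 2-fold. The PERK list has a median of 0.93, and the 6 role groups have medians between -0.00 and 0.22.

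Chaperones of other compartments served for comparison. Of 10 kept cytosolic chaperone genes none reached 1.5-fold and 5 lay above the all-gene median, with a median log2 change of 0.18. Hsp90ab1, the abundant cytosolic HSP90, was at 1260 and 1708 FPKM, a ratio of 1.36 (1.34 to 1.37), and its co-chaperone gene Stip1 at 138 and 182 FPKM. Of 6 mitochondrial genes 5 lay above the all-gene median. Lonp1, a protease gene known to respond to ATF4, was at 64.6 and 113 FPKM, a ratio of 1.76 (1.69 to 1.82), and Hspe1 at 67.6 and 86.5 FPKM.

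Markers of other cells differed between the libraries too. The summed FPKM of 11 B cell markers was 63.6 and 25.7, and all 10 kept ones lay below the all-gene median. The 7 monocyte and macrophage markers summed to 12.3 and 5.87 FPKM. The 7 dendritic cell markers summed to 6.97 and 23.7 FPKM. That rise came from Batf3 (2.18 and 21.5 FPKM), which activated T cells also use, and the other 6 summed to 4.79 and 2.15 FPKM. The locus printed for Batf3 spans other coding genes as well, Nsl1 among them. Plasma cells express many of the 32 genes strongly, and of their defining markers Tnfrsf17 was at 0 in both libraries, Jchain at 0.391 and 0.0512 FPKM and Sdc1 at 0.411 and 0.195 FPKM. Prdm1 was at 1.18 and 1.14 FPKM and Derl3 at 0.762 and 1.05 FPKM, while Irf4, which activated T cells also express, was at 401 and 418 FPKM. Mzb1, an ER chaperone gene of B and plasma cells, was at 4.22 and 1.97 FPKM, for a ratio of 0.468 (0.325 to 0.672). The part of these cells in the values of the 32 genes, Atf6 included, was not tested.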

How the data were processed

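The 2 libraries were compared, 1 per condition. The authors deposited FPKM values per gene, which the submitters' processing notes tie to TopHat2, Cuffdiff and mm9. Tool versions, annotation and strand handling are not given in the sources used here, and the printed loci follow GRCm38. Per the file headers, a second deposited table gives the authors' log2 ratio and p-value for 398 genes.

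Of 13056 Entrez identifiers, 13030 matched an NCBI RefSeq table (GRCm38.p6), which gave symbols. Genes with under 1 FPKM in both libraries were left out, and a pseudocount of 1 was used. Relative depth came from 88 genes with 1 GENCODE M21 transcript of at least 1500 bases and values under 0.3 FPKM. At a ratio of 0.873, 69.3% had whole-number fragment ratios within 0.2%, against 1.14% at a shifted ratio. Fragments per gene used the median transcript length and ranged from 311 to 31287 for the 32 genes. Steps were checked on simulated data. Named genes were the 32, and in each other list those at 2-fold and the 2 most changed. Relatives and partners of the 32 (such as Edem2, Atf6b, Ero1b, P4ha1 and P4ha2), other J protein genes, Atf4 and single cell type markers were named after their values were seen. Genes and lists were chosen with earlier results of these data known. Protein sequences were not used here. Alternatives were other pseudocounts, filters and scalings and leaving out shared loci. Python 3.11.15, numpy 2.4.6 and scipy 1.17.1 were used.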

Additional observations from a re-analysis of the deposited data

How the results depend on the processing

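No paired analysis was possible because each condition had 1 library. No gene of the 32 reached 2-fold under any of the 7 settings tried. Both 1.5-fold calls remained with pseudocounts of 0.1 and 5, without the filter, with a filter of 5 FPKM and with totals set equal, where 5 small positive changes turned negative. With the median ratio of well-expressed genes set to 1, 0 genes were 1.5-fold higher, since Edem1 came to 0.57 log2. The median over the 32 genes came to -0.030 and the role medians to -0.058 (BiP system), 0.026 (lectins), -0.0094 (isomerases), -0.095 (sensors), -0.056 (degradation) and 0.089 (translocon). With totals set equal, the median was 0.020 and the role medians -0.0069 (BiP system), 0.077 (lectins), 0.042 (isomerases), -0.0068 (degradation) and 0.14 (translocon). Without the 10 genes whose locus holds another coding gene, 0 genes were 1.5-fold lower, since Atf6 is among them, and the medians of isomerases (0.39) and sensors (0.12) moved. Only P4hb and Pdia4 then remained among the isomerases, and only Ern1 and Xbp1 among the sensors. A filter of 5 FPKM removed Ern1, which left Atf6 and Xbp1, and moved the sensor median to -0.26. Against kept genes in the same wide FPKM range, an alternative chosen after seeing the data, the median differed from that background by -0.022 log2. The median of the list minus that of all kept genes turned positive without the filter (0.0096) and without genes in shared loci (0.020). It stayed negative under the other settings. Fragment numbers limit mainly Dnajb9 and Ern1, whose intervals are wide.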
